A study of Arabidopsis thaliana with 12 samples.

Results

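The microRNA genes of the series were taken as all genes whose symbol in the deposited tables is MIR followed by a number. There were 45, of which 37 had a gene value in at least 1 library, out of 20869 genes with a value in the series, and 23 of the 19656 genes tested. A gene value was the summed abundance of the assembled transcript pieces that match or overlap the annotated gene, in FPKM (fragments per kilobase of transcript, scaled to library size). A 0 below says that no such piece was listed in that library and is not a measured absence.

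The libraries hold poly-A RNA of whole Arabidopsis thaliana seedlings, so they measure the primary transcripts of microRNA genes and not the mature microRNAs. Each of the 4 genotypes has 3 libraries, labelled WT (Col-0), smxl5-1, smxl4-1 smxl5-1 (called the double mutant here) and smax1-2, all in the Col background and with no treatment named. The seedlings were 7 days old, raised on MS plates at 21 °C with 12 h of light and 12 h of darkness a day, and 15 of them made up each biological replicate. SMAX1, SMXL4 and SMXL5 belong to a family of nuclear proteins related to heat-shock chaperones. The comparisons ask how the microRNA genes differ between these genotypes. In whole seedlings, fewer cells of a type and less RNA per cell cannot be told apart.

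In plants RNA polymerase II transcribes microRNA genes into capped and polyadenylated primary transcripts that fold into a hairpin. The nuclease DCL1, with the double-stranded RNA binding protein HYL1 and the zinc finger protein SE, cuts the hairpin out, HEN1 methylates the resulting duplex, and AGO1 carries 1 strand to the target mRNAs. Because the hairpin is cut out of it, a primary transcript is short-lived. Many targets are transcription factors of development, such as the SPL genes for miR156 and the HAM genes for miR171.

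The mature sequences of the members that the results turn on are given from RefSeq's annotation of TAIR10.1, which holds all 45 members and 73 mature microRNAs for them, with 64 distinct sequences and 58 distinct seeds. Capitals mark the seed, bases 2 to 8 from the 5′ end.
The first set holds the miR171 family, since MIR171B was the only member called. The 3p products of MIR171B and MIR171C are the same sequence, and that of MIR171A has another seed.
miR171b-3p: uUGAGCCGugccaauaucacg
miR171c-3p: uUGAGCCGugccaauaucacg
miR171a-3p: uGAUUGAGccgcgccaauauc
The second set holds the products of MIR159B, which had the largest difference from WT among the members listed in every library, not called, and of its relative MIR159A, which share a seed.
miR159b-3p: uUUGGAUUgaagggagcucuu
miR159a: uUUGGAUUgaagggagcucua
The third set holds miR156 and miR157, which pair with the same sites in SPL genes although their seeds differ, and the miR167 pair, which shares a seed.
miR156c-5p: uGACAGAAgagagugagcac
miR157a-5p: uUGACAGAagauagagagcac
miR157c-5p: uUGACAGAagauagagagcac
miR167a-5p: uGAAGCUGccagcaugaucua
miR167d: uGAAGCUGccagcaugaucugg
The last set holds 2 members with small F-test p values, MIR822A and MIR775A, and other members described by their levels, each alone with its seed among the listed members except miR162a-3p, whose sequence MIR162B also makes.
miR822-5p: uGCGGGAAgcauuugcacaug
miR775: uUCGAUGUcuagcagugcca
miR408-3p: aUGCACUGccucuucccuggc
miR163: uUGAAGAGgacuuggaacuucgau
miR162a-3p: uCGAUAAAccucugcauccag
miR414: uCAUCUUCaucaucaucguca

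The pieces used for gene values summed to 14218178 to 16693579 fragments a library, as implied by the bounds deposited with each FPKM. This sum is not the number of fragments sequenced. Each library held 13 to 21 members with a gene value. Marker genes of green tissue (3 of 3 listed, summed level 31000 to 40500 FPKM) and of root (4 of 4 listed, 18.6 to 44.0 FPKM) were present, as whole seedlings should show. Of 3 floral organ genes 1 was listed (summed level 0 to 5.04 FPKM), with AP3 and AG at 0 throughout. Of 4 seed storage genes 2 were listed (0 to 7.64 FPKM). SMXL5 and SMXL4 did not identify their mutants by a low transcript level, while SMAX1 was lowest in its own. SMXL5 ranged over 3.47 to 5.18 FPKM in WT, 39.98 to 50.6 FPKM in the libraries labelled smxl5-1 and 9.0 to 18.2 FPKM in the double mutant, and SMXL4 lay at 2.75 to 4.85 FPKM in the double mutant against 1.81 to 3.01 FPKM in WT and reached 16.1 FPKM in smax1-2 replicate 3. SMAX1 stood at 15.15 to 18.2 FPKM in the libraries labelled smax1-2, below every other library, against 21.3 to 22.5 FPKM in WT. Its difference from WT was not called (adjusted p = 0.712, limma), and that between the double mutant and smax1-2 was (adjusted p = 0.0357, limma). Since SMXL5 and SMXL4 did not mark their mutants, every direction below is between libraries as labelled.

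Listing divided the microRNA genes sharply. In all 12 libraries 11 members were listed, 26 were listed in 1 to 6 libraries, and 8 had no usable piece in any. The 11 were MIR156C, MIR157A, MIR157C, MIR159B, MIR162A, MIR163, MIR167D, MIR408, MIR414, MIR822A and MIR824A. Of the 26 partly listed members, 10 were found in 1 library only and 4 in exactly 2. The 8 without a value were MIR160B, MIR162B, MIR164B, MIR166E, MIR171A, MIR171C, MIR394B and MIR823A, which had only pieces near the gene that do not overlap it.

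**Figure D1:**
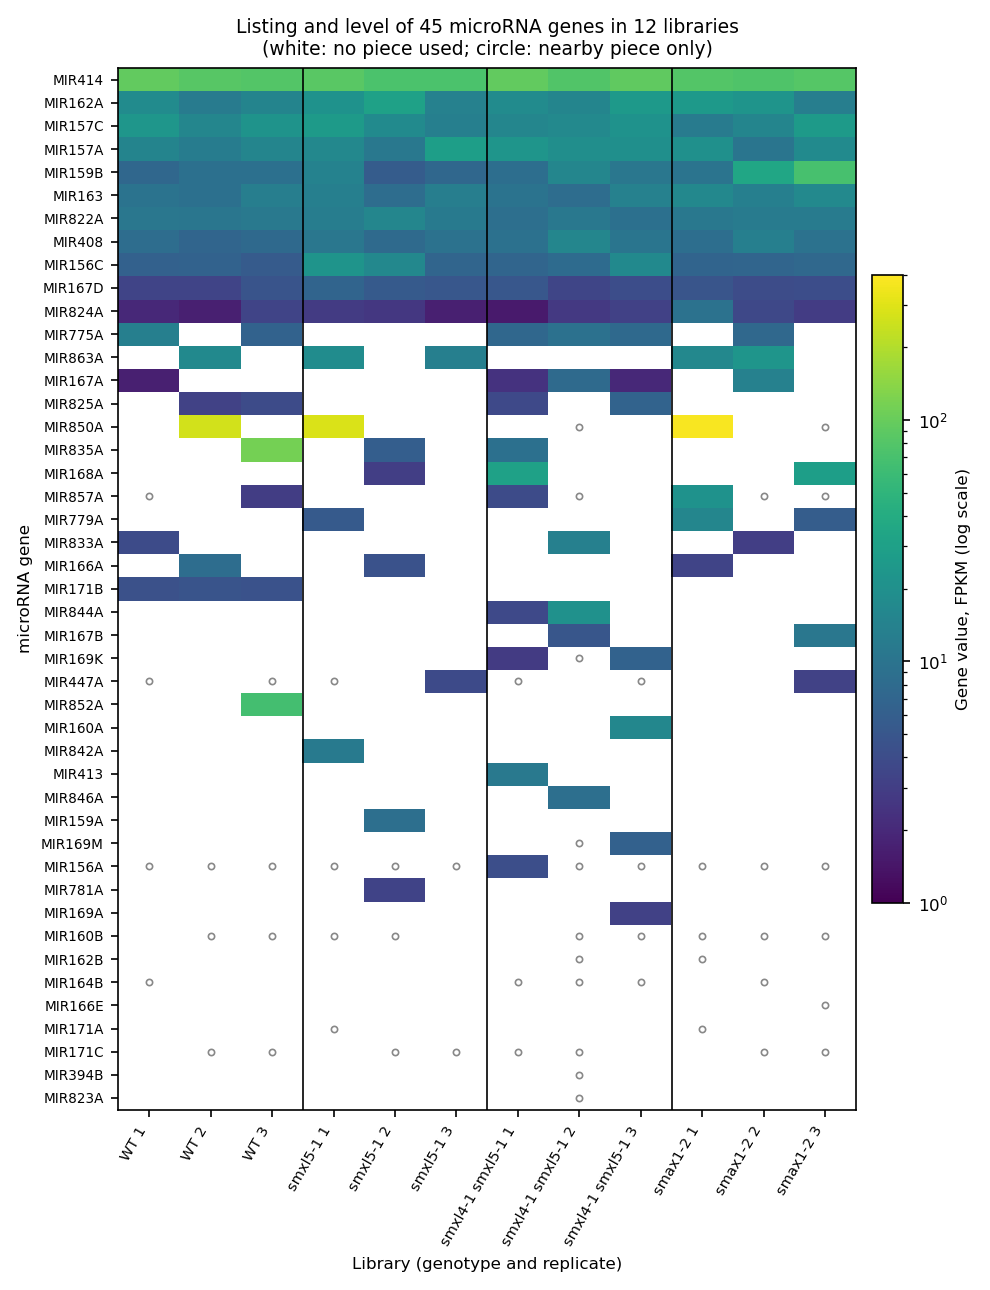
Gene value in FPKM (colour, log scale) of the 45 microRNA genes (rows) in the 12 libraries (columns, 3 per genotype), with white for no usable piece and a circle where only a nearby piece was listed. The top 11 rows are filled throughout, MIR171B is filled in the 3 WT libraries alone, and most rows below MIR824A are filled in 1 to 6 libraries.

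Partial listing mostly went with few fragments. The 64 pieces of the 26 partly listed members had a median of 18.0 implied fragments each, and 46 of the 64 had fewer than 30. Summed over the pieces of a gene in a library, the 11 always-listed members had 31.9 to 704 implied fragments. These sums are not per piece: MIR156C in smax1-2 replicate 2 had 56.7 over 4 pieces. Over all pieces of a library, the 1st percentile of implied fragments was 9.59 and the median 104 to 148, so most partly listed members sat near the lower end of what was assembled. These numbers cover only the libraries where a piece was listed. The part of depth in the missing pieces was not tested, and absence was not shown. More implied fragments lay behind MIR160A, MIR169A and MIR413, each listed in 1 library, on 57.3, 49.2 and 42.4. MIR775A reached 46.7. The highest were MIR863A, with 130 to 213 implied fragments where listed, and MIR850A, with 91.3 to 281. Both overlap another noncoding RNA gene on the same strand, and the part of that overlap in their listing was not tested.

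The assembled pieces were often longer than the annotated gene. Of the 279 pieces used, 145 were longer than the reference transcript. MIR157A, annotated with 91 bases, was assembled as pieces of 511 to 1285 bases. MIR822A, annotated with 337 bases, was assembled as pieces of 822 to 1068 bases, and MIR159B, with 186 bases, as pieces of 217 to 891 bases. MIR167D (1605 bases) and MIR824A (up to 1485 bases) are annotated as long transcripts, and none of their pieces exceeded the reference. By the gene spans of TAIR10.1, 14 of the 45 members overlap another annotated gene. Whether reads were counted by strand is not given in the sources used here, so for these the reads of both genes cannot be told apart. Pieces longer than the annotated span can also reach genes that it does not overlap. One such neighbour is AT1G08847, 224 bases from MIR157A. Overlap of pieces with neighbours was not counted.

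Among the always-listed members MIR414 was the highest, at 73.5 to 95.5 FPKM with a mean of 83.4 FPKM over the 12 libraries. Its range did not overlap that of any other always-listed member, and it varied least, with a highest value 1.3 times the lowest. MIR414 is an early annotation whose small RNA is not firmly established as a microRNA.

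A middle group held genes of conserved families. MIR162A, whose microRNA targets the DCL1 mRNA itself, averaged 19.1 FPKM (12.2 to 30.5). MIR157C and MIR157A, whose products repress SPL transcription factors of the juvenile to adult transition, averaged 18.8 FPKM (12.2 to 26.5) and 17.3 FPKM (10.3 to 28.9). These levels overlapped: MIR162A exceeded MIR157C in 6 of 12 libraries, and MIR157C exceeded MIR157A in 8 of 12. MIR159B, whose product represses the MYB33 and MYB65 factors, had a mean of 16.9 FPKM but a median of 9.67 FPKM (5.69 to 69.6).

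Below these, MIR163 averaged 12.1 FPKM (8.57 to 17.0) and MIR822A 11.4 FPKM (8.95 to 15.7), both young genes of Arabidopsis. MIR408, known as a copper-responsive gene whose product targets laccases and plantacyanin, averaged 9.92 FPKM (7.12 to 15.8). MIR156C, of the same SPL-targeting group as MIR157A, averaged 9.84 FPKM (5.55 to 22.1). The lowest were MIR167D, whose product targets ARF6 and ARF8, at 4.56 FPKM (3.43 to 6.83), and MIR824A, whose product targets AGL16, at 3.15 FPKM (1.55 to 9.51). MIR156C exceeded MIR167D in 12 of 12 libraries and MIR167D exceeded MIR824A in 11 of 12, although their ranges overlapped.

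**Figure D2:**
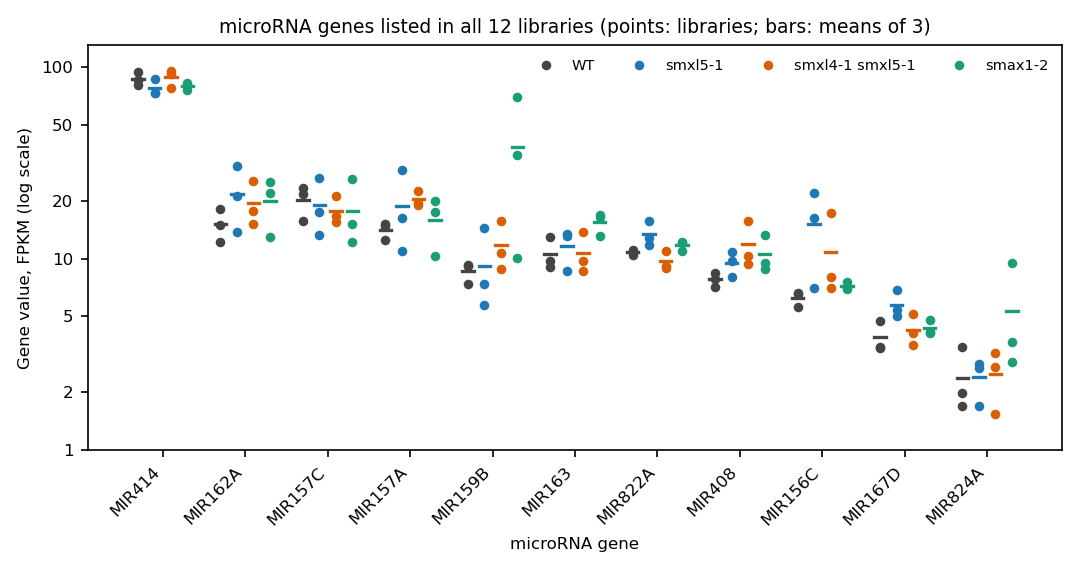
Gene value in FPKM (log axis) of the 11 microRNA genes listed in all 12 libraries, with 1 point per library, coloured by genotype, and a bar at the mean of 3. MIR414 lies alone at 73.5 to 95.5 FPKM, and MIR159B in smax1-2 spreads from 10.11 to 69.6 FPKM.

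Of the 23 members tested, 1 was called among the 4 genotypes, MIR171B, at an adjusted p of 0.00588 (moderated F test of limma, Benjamini-Hochberg adjustment over all genes tested). In the background 2.06% of all tested genes were called by that test. MIR171B passed the filter on low values only through the 3 WT libraries and is listed at 0 in the other 9, so its direction was fixed by the filter, and its calls describe that listing rather than support a difference in level. An unadjusted p under 0.05 was reached by 4 of the 23 members, beside 16.1% of all genes. The 23 were the 11 always-listed members and 12 others that reached 1 FPKM in at least 3 libraries, while 14 members with a value were not tested.

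Against WT, MIR171B was again the only member called in each mutant, always lower, as the filter fixed. For the libraries labelled smxl5-1 the call stood beside 0.102% of all genes called lower, for the double mutant beside 0.504%, and for smax1-2 beside 0.0204%, where 0.0153% were called higher. The median difference over the 23 members was 0.03 on the log2 scale in smxl5-1 (0.07 over all genes), 0.10 in the double mutant (0.07 over all genes) and 0.17 in smax1-2 (0.09 over all genes). With quantile normalization the median of all genes in smax1-2 moved from 0.09 to -0.02. With limma, 5 of 23 members reached an unadjusted p under 0.05 in smxl5-1, 2 in the double mutant and 4 in smax1-2, MIR171B among them each time. Over all genes 12.2%, 11.9% and 6.77% reached it. The 3 comparisons share the WT libraries.

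Between the mutants 0 of 23 members were called by limma, in the double mutant against smxl5-1 (2.99% of all genes called), in the double mutant against smax1-2 (1.55%) and in smxl5-1 against smax1-2 (0.224%, of which 0.0814% were lower). Unadjusted p under 0.05 was reached there by 3, 3 and 2 members, beside 17.1%, 11.9% and 11.8% of all genes. When the fit held only the groups compared, 1 member, MIR775A, was called in the double mutant against smxl5-1.

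Libraries of the mutant and of WT did not overlap for 4 of 23 members in smxl5-1, 5 of 23 in the double mutant and 5 of 23 in smax1-2. Over all genes tested this held for 19.0%, 19.1% and 17.3%, so the members' shares, 17.4%, 21.7% and 21.7%, were near the background. MIR156C was above WT without overlap in each of the 3 mutants, and MIR408 in the double mutant and smax1-2.

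**Figure D3:**
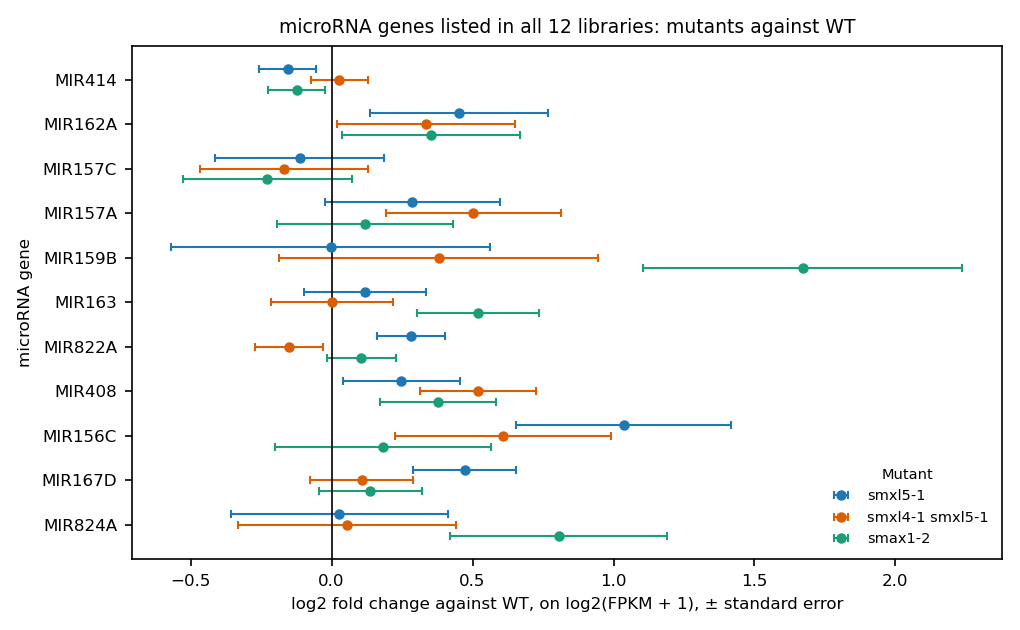
log2 fold change against WT, computed on log2(FPKM + 1), with its standard error, for the 11 microRNA genes listed in all 12 libraries and the 3 mutants. The largest values are 1.67 for MIR159B in smax1-2 and 1.04 for MIR156C in smxl5-1, and none of the points passed the adjusted threshold.

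MIR171B (AT1G11735, TAIR10.1 chr1:3961348-3961464, minus strand) was listed in WT alone. The 3 WT libraries held it at 4.45, 4.80 and 4.51 FPKM, and all 9 mutant libraries list it at 0. The WT values lay close together and the groups did not overlap. The deposited bounds of the WT values were 2.55 to 6.35, 1.70 to 7.89 and 2.32 to 6.69 FPKM.

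The adjusted p of MIR171B was 0.0138 in smxl5-1, 0.0055 in the double mutant and 0.0373 in smax1-2 (limma, Benjamini-Hochberg adjustment). No fold is given, since every mutant library is listed at 0. The fitted difference in log2(FPKM + 1) was -2.48 with a standard error of 0.317 in each mutant, and with a pseudocount of 0.25 it was -4.27, so its size is set by the pseudocount. The mutant values, all at 0, have no spread of their own, so the standard error rests largely on other genes.

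Few fragments lie behind these calls. The WT pieces were 406, 298 and 370 bases long and rested on 22.0, 9.59 and 17.0 implied fragments, beside a 1st percentile of 9.59 fragments over all pieces of a library. Among the 19656 tested genes 4 (0.0204%) were listed in all 3 WT libraries and in none of the other 9. The same held for 11 genes (0.056%) with smxl5-1 as that genotype, 12 genes (0.0611%) with the double mutant and 5 genes (0.0254%) with smax1-2.

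The calls also moved with single libraries and with the gene value. Without WT replicate 1, 2 or 3 the adjusted p in smxl5-1 was 0.0937, 0.0833 and 0.0664. In smax1-2 it was 0.0508 to 0.244 when any 1 of the 12 libraries was left out, and in the double mutant it stayed at 0.00665 to 0.0477. With the plain sum of FPKM the adjusted p was 0.138, 0.074 and 0.335 in the 3 mutants, and on the fragments implied by the bounds it was 0.127, 0.0808 and 0.394.

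The surroundings of MIR171B were looked at for the missing pieces. The nearest annotated gene, AT1G04877 on the plus strand, lies 102 bases away on the side of lower coordinates. The WT pieces were longer than the 117 bases annotated for MIR171B, and the part of AT1G04877 in them was not tested. Pieces near the next protein-coding gene on the side of lower coordinates, B3GALT1 (AT1G11730), that do not overlap that gene were listed in 1 of 3 WT libraries and 7 of 9 mutant libraries, at 6.17 to 31.3 FPKM where present. The tables give no position for such pieces, and their part in the listing of MIR171B was not tested. B3GALT1 itself had 1.02, 4.84 and 1.85 FPKM as its WT values and 0 to 6.40 FPKM across the mutants.

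The other genes of the family had no usable piece. Pieces near MIR171C, which makes the same 3p sequence as MIR171B, were listed in 8 libraries, 2 of each genotype, at 3.30 to 15.6 FPKM. Pieces near MIR171A were listed in 2 libraries.

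The targets of miR171 are HAM1, HAM2 and HAM3, GRAS transcription factors that keep shoot meristems undifferentiated. The site read from the TAIR10.1 transcripts is shown for HAM1 because both family sequences meet there, with paired bases in capitals and mismatched bases in lower case. The site pairs with miR171a-3p at chr2:18619128-18619148 (minus strand) without a mismatch and with miR171b-3p at chr2:18619131-18619151 with 3 mismatches, and HAM2 and HAM3 have the same numbers of mismatches.
HAM1 site for miR171a-3p: GAUAUUGGCGCGGCUCAAUCA
HAM1 site for miR171b-3p: aGgGAUAUUGGCgCGGCUCAA

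HAM1 was at 14.3, 14.85 and 14.9 in WT, at 17.3, 13.2 and 14.8 in smxl5-1, at 13.6, 20.2 and 15.6 in the double mutant and at 18.7, 16.9 and 16.8 in smax1-2, in FPKM. HAM2 stood at 8.25 to 12.7 FPKM over the 12 libraries. HAM3 was at 6.69, 7.56 and 8.63 in WT, at 8.04, 8.83 and 8.42 in smxl5-1, at 12.0, 9.35 and 12.98 in the double mutant and at 9.67, 9.60 and 11.1 in smax1-2, in FPKM. The HAM1 libraries of smax1-2 lay above those of WT, and the HAM3 libraries of the double mutant and of smax1-2 lay above those of WT. Over all genes 19.1% and 17.3% did not overlap in the double mutant and in smax1-2, counting both directions. With 3 genes, no share can be set against these. None of the 3 genes was called, the closest being HAM3 in the double mutant with a log2 fold change of 0.52 (SE 0.14, adjusted p = 0.134, limma).

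**Figure D4:**
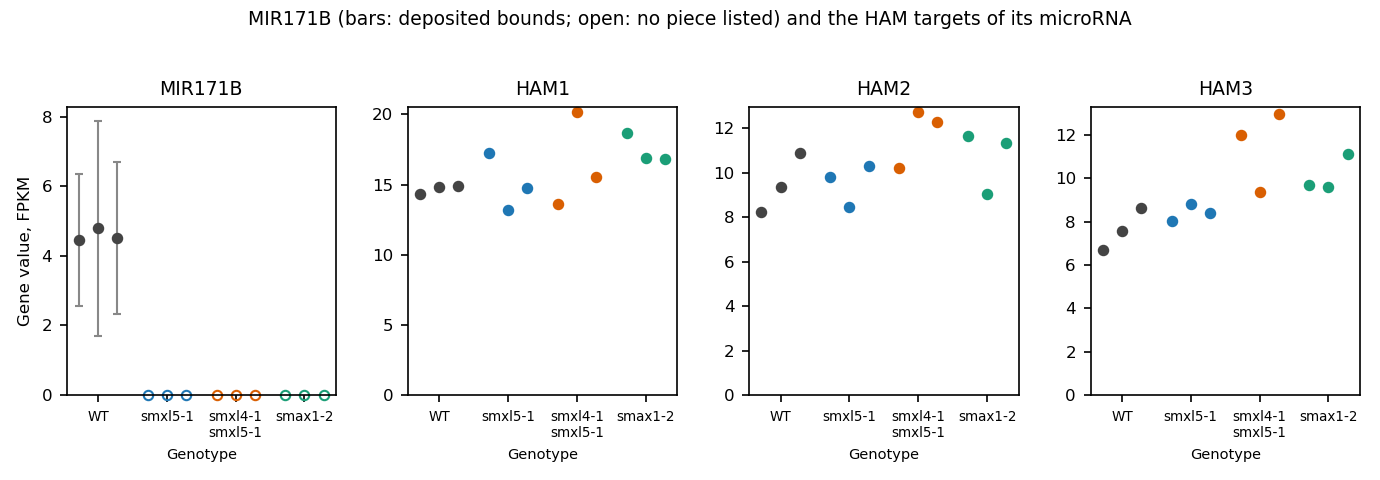
Gene value in FPKM of MIR171B and of its targets HAM1, HAM2 and HAM3 in the 12 libraries, grouped by genotype, with the deposited lower and upper bounds as bars for MIR171B and open points where no piece was listed. MIR171B is at 4.45 to 4.80 FPKM in WT and open in the 9 mutant libraries, while the HAM genes are present in every library.

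MIR159B (AT1G18075, chr1:6220646-6220841, plus strand) had the largest difference among the always-listed members. Its values in FPKM were 7.36, 9.23 and 9.18 in WT, 14.4, 5.69 and 7.41 in smxl5-1, 8.78, 15.8 and 10.7 in the double mutant and 10.11, 34.9 and 69.6 in smax1-2. All 3 smax1-2 libraries lay above WT, and 2 of them far above. The log2 fold change against WT was 1.67 (SE 0.57, unadjusted p = 0.0142) and was not called (adjusted p = 0.658, limma).

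The 2 high smax1-2 libraries also differed in how the gene was assembled. In every other library MIR159B was 1 piece of 573 to 891 bases, in smax1-2 replicate 2 it was 2 pieces of 398 bases each, and in smax1-2 replicate 3 it was 2 pieces of 217 and 367 bases. The implied fragments were 115, 106 and 143 in WT and 96.0, 149 and 121 in smax1-2, which overlap. On those fragments the log2 fold change was 0.01 (adjusted p = 1.0). The part of piece length in the FPKM of smax1-2 replicates 2 and 3 was not tested beyond this.

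**Figure D5:**
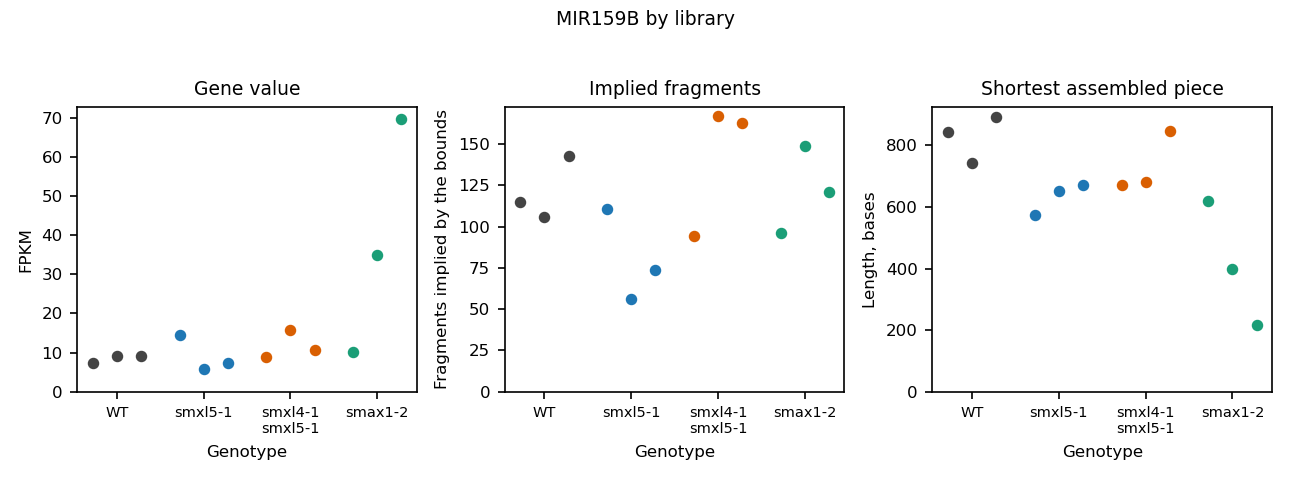
MIR159B by library and genotype, as gene value in FPKM, as fragments implied by the deposited bounds, and as the length of its shortest assembled piece in bases. The 2 highest FPKM values, 34.9 and 69.6 in smax1-2, go with the 2 shortest pieces, 398 and 217 bases, while the implied fragments of smax1-2 (96.0 to 149) overlap those of WT (106 to 143).

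The targets MYB33 and MYB65, activators of gibberellin-type responses in seeds and anthers, stood at 5.53 to 7.57 and 1.83 to 6.16 FPKM over the 12 libraries. Neither was called.

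MIR822A (AT5G03552) had the second smallest p among the 4 genotypes (unadjusted 0.03, adjusted 0.25, limma). Its values in FPKM were 10.8, 10.5 and 11.15 in WT, 12.8, 15.7 and 11.83 in smxl5-1, 8.95, 10.9 and 9.16 in the double mutant and 10.96, 12.1 and 12.2 in smax1-2. All 3 libraries of smxl5-1 lay above those of the double mutant and of WT, beside 20.4% and 19.0% of all genes without overlap in those comparisons. The log2 fold change of the double mutant against smxl5-1 was -0.43 (SE 0.12, adjusted p = 0.0916), and it was -0.39 on the implied fragments. All 3 double mutant libraries also lay below those of smax1-2, beside 17.9% of all genes without overlap in that comparison. MIR822A lies on the minus strand and overlaps AT5G03553 on the plus strand, which was listed at 0 throughout.

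MIR156C (AT4G31877) had values in FPKM of 6.49, 6.61 and 5.55 in WT, 22.1, 16.3 and 7.05 in smxl5-1, 7.00, 8.04 and 17.35 in the double mutant and 6.96, 7.03 and 7.56 in smax1-2. Every mutant library lay above every WT library, and 3 of the 9 were far above the others. The log2 fold change was 1.04 in smxl5-1 (SE 0.38, adjusted p = 0.309), 0.61 in the double mutant (adjusted p = 0.599) and 0.18 in smax1-2 (adjusted p = 0.937). The 3 high libraries held the shortest pieces of MIR156C, of 126, 165 and 175 bases, and on the implied fragments the difference was 0.15 in smxl5-1, 0.54 in the double mutant and 0.32 in smax1-2, none of them called.

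MIR775A (AT1G78206, chr1:29422452-29422574, plus strand) was listed in 2 WT libraries (13.4 and 6.64 FPKM), in all 3 double mutant libraries (7.37, 9.35 and 7.71 FPKM), in 1 smax1-2 library (7.60 FPKM) and in none of smxl5-1. The double mutant and smxl5-1 did not overlap, beside 20.4% of all genes, and the adjusted p was 0.125. It rested on 18.9 to 46.7 implied fragments per listed library. No target of miR775 was on the target list.

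MIR167A (AT3G22886, chr3:8108072-8108209, plus strand) was the other member listed in all 3 libraries of 1 genotype and none of another. Its values were 2.43, 7.95 and 1.98 FPKM in the double mutant, 1.70 FPKM in WT replicate 1 and 13.9 FPKM in smax1-2 replicate 2, and it was listed at 0 in the other 7 libraries, all of smxl5-1 among them. The adjusted p of the double mutant against smxl5-1 was 0.283. It rested on 9.59 to 26.9 implied fragments. Its sister MIR167D, which differs in the last bases of the mature sequence, had 3.43, 3.46 and 4.75 FPKM as its WT values, below the 6.83, 5.40 and 5.03 FPKM of smxl5-1 without overlap (log2 fold change 0.47, SE 0.18, adjusted p = 0.331).

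The targets of miR167 did not pass in any comparison. ARF6 stood at 9.31 to 13.4 FPKM and ARF8 at 8.73 to 14.9 FPKM, both auxin response factors of flower and root growth. IAR3, an enzyme that frees auxin from its amino acid conjugates, stood at 17.2 to 30.6 FPKM.

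Of the remaining always-listed members, MIR408 rested between 7.12 and 8.42 FPKM in WT and between 9.38 and 15.8 FPKM in the double mutant (log2 fold change 0.52, SE 0.21, adjusted p = 0.352). MIR163 ranged over 9.08 to 12.95 FPKM in WT and 13.2 to 16.96 FPKM in smax1-2 (0.52, SE 0.22, adjusted p = 0.727). On the implied fragments the MIR408 difference stayed at 0.48 and the MIR163 difference was -0.28. MIR408 overlaps AT2G47020, a protein-coding gene on the other strand that stood at 0 to 15.1 FPKM. MIR157A, MIR157C, MIR162A, MIR414 and MIR824A had adjusted p values above 0.05 in every comparison too.

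Several partly listed members with very high values share their place with another gene. MIR850A stood at 264 FPKM in WT replicate 2, 287 FPKM in smxl5-1 replicate 1 and 378 FPKM in smax1-2 replicate 1, and at 0 in the other 9 libraries. MIR863A stood at 13.4 to 22.5 FPKM in 5 libraries, among them those 3. Both lie on the plus strand of chromosome 4 and overlap AT4G13495, a noncoding RNA gene that stood at 96.8 to 286 FPKM in the 12 libraries. MIR835A, which overlaps AT1G76065, reached 114 FPKM in WT replicate 3, where its shorter piece had 92 bases, and 5.94 and 9.24 FPKM in 2 other libraries. MIR852A, which overlaps AT4G14500, reached 66.6 FPKM in WT replicate 3 alone, on 9.59 implied fragments.

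The other members of conserved families were seen in few libraries. MIR156A was listed in 1 library, with pieces near the gene in all 12. MIR166A, whose product patterns leaf polarity through the PHB and REV class of factors, was listed at 8.498, 4.48 and 3.435 FPKM in 1 library each of WT, smxl5-1 and smax1-2. MIR168A, whose product targets AGO1, stood at 3.03, 30.6 and 28.8 FPKM in 3 mutant libraries on at most 11.9 implied fragments each. MIR169A, MIR169K and MIR169M, whose products target NF-YA factors, were listed in 1 or 2 double mutant libraries each, at 2.81 to 6.63 FPKM. The double mutant libraries listed 17 to 21 members, the others 13 to 17, and this difference was not tested.

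The genes that make and use microRNAs were all present. Each of the 30 on the list, from DCL1 to the tailing enzyme HESO1, was listed in 12 libraries, and 0 of 30 were called by limma in any comparison, with 0 to 3 reaching an unadjusted p under 0.05. Over all genes 0.0356% to 2.99% were called in these comparisons and 6.77% to 17.1% reached that unadjusted p. Their median log2 fold change against WT was 0.02 in smxl5-1, 0.15 in the double mutant and 0.16 in smax1-2, beside 0.07, 0.07 and 0.09 over all genes. DCL1 averaged 5.59 FPKM (3.67 to 6.93), HYL1 11.9 FPKM (8.90 to 15.1), SE 22.7 FPKM (19.5 to 26.5), HEN1 4.27 FPKM (2.71 to 7.31) and AGO1 34.2 FPKM (28.1 to 46.4).

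The target list held 92 genes, of which 81 were tested. In smxl5-1 and in smax1-2 against WT 0 of 81 were called by limma, with 7 and 4 at an unadjusted p under 0.05 (12.2% and 6.77% of all genes) and 0.351% and 0.0356% of all genes called. In the double mutant 3 of 81 were called, all higher, beside 0.631% of all genes called higher and 1.13% called in all. They were PAP1, a MYB activator of anthocyanin synthesis that miR828 can target through TAS4, and TOE1 and TOE2, AP2-type repressors of flowering that miR172 targets. No gene for miR828 or miR172 was listed in these libraries.

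PAP1 was listed at 0 in all WT libraries and in 2 of smxl5-1, with 1.58 FPKM in the other one. Its values were 13.02, 18.5 and 12.9 FPKM in the double mutant and 1.40, 2.15 and 3.635 FPKM in smax1-2. The double mutant stood apart from the other groups without overlap (adjusted p = 0.00141 against WT). Against smax1-2 the log2 fold change was 2.25 (adjusted p = 0.0242), which did not hold without smxl4-1 smxl5-1 replicate 1, 2 or 3 or without smax1-2 replicate 1 or 2 (adjusted p up to 0.0907).

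TOE1 had 31.4, 32.1 and 31.05 FPKM as its WT values, against 41.3, 41.15 and 40.4 FPKM for the double mutant. The libraries did not overlap and the log2 fold change was 0.37 (SE 0.06, adjusted p = 0.018), but it was -0.10 with the plain sum of FPKM. The call was lost without WT replicate 1, 2 or 3 and without smxl4-1 smxl5-1 replicate 1, 2 or 3 (adjusted p up to 0.0811). TOE2 had 11.5, 10.3 and 12.7 FPKM as its WT values, against 16.6, 20.03 and 19.7 FPKM for the double mutant (log2 fold change 0.66, adjusted p = 0.0283). That call was lost without WT replicate 1, 2 or 3, smxl4-1 smxl5-1 replicate 2 or 3, or smax1-2 replicate 1 (adjusted p up to 0.116).

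Against smxl5-1 the double mutant had 4 of 81 targets called, 3 higher and 1 lower, beside 1.2% of all genes called higher and 1.8% called lower. An unadjusted p under 0.05 was reached by 27 of the 81, beside 17.1% of all genes. TOE1 (log2 fold change 0.43, adjusted p = 0.00701) and PAP1 (adjusted p = 0.00254) were higher, as was PHO2, the ubiquitin-conjugating enzyme of phosphate balance that miR399 targets. PHO2 had 15.5, 19.6 and 15.9 FPKM in smxl5-1, below the 30.95, 23.8 and 31.4 FPKM of the double mutant (log2 fold change 0.72, adjusted p = 0.0287). APS4, an ATP sulfurylase that miR395 targets, was lower, with 41.8, 52.15 and 40.5 FPKM in smxl5-1 above the 27.8, 25.6 and 24.85 FPKM of the double mutant (log2 fold change -0.75, adjusted p = 0.017). The PHO2 call was lost without smxl5-1 replicate 1 or 3 or smxl4-1 smxl5-1 replicate 1 or 3 (adjusted p up to 0.107), and the APS4 call without smxl4-1 smxl5-1 replicate 2 or 3 (up to 0.0701). As with miR828 and miR172, no gene for miR399 or miR395 was listed in these libraries.

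Against smax1-2 the double mutant had 2 of 81 targets called, beside 0.809% of all genes called higher and 0.738% called lower. PAP1 was higher, as given above, and the plantacyanin gene ARPN, a target of miR408, was lower (log2 fold change -0.93, adjusted p = 0.0338). ARPN had 4.92, 7.87 and 6.98 FPKM in the double mutant, below the 12.98, 12.95 and 13.8 FPKM of smax1-2. Its call was lost without WT replicate 2, smxl5-1 replicate 1 or 3, smxl4-1 smxl5-1 replicate 1 or 3, or any smax1-2 replicate (adjusted p up to 0.116). In smxl5-1 against smax1-2 0 of 81 were called by limma, with 13 at an unadjusted p under 0.05, beside 0.224% and 11.8% of all genes. With the plain sum of FPKM all 9 of these target calls were lost, and when only the groups compared were fitted 8 of the 9 were lost. With the replicate block the calls of TOE1 and TOE2 against WT and of APS4 and PHO2 against smxl5-1 were lost. The TOE1 call against WT was also lost with quantile normalization, with median-of-ratios scaling and on the implied fragments, and on those fragments only the PAP1 calls against WT and smxl5-1 and the ARPN call held. With class codes =, c and j only, the TOE2 call, the ARPN call and the PAP1 call against smax1-2 were lost. This PAP1 call was also lost with a pseudocount of 0.25.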

How the data were processed

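The deposited tables, 1 per library, list assembled transcript pieces, and reads were not processed again. The submitters' processing notes name TopHat2 2.0.14 and TAIR10. For the assembler, its settings and the strand protocol nothing is stated in the sources read. Per the file headers each piece has an abundance in FPKM with lower and upper bounds, a coverage signal, and a percent of the most abundant piece of its locus, of which only the deposited FPKM and lengths were used.

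Pieces of class codes =, c, j, e and o were kept (345442 of 353616), and a gene's value in a library was the sum of FPKM multiplied by the smaller of piece length and reference length over the reference length. Libraries were joined by locus. The tested genes reached 1 FPKM in 3 or more libraries. A single limma-trend fit (limma 3.58.1, R 4.3.3) took log2(FPKM + 1) of the 12 libraries and gave 6 comparisons among 4 groups; a call needed an adjusted p (Benjamini-Hochberg) below 0.05. This differs from DESeq2, which the authors name, because the tables hold no counts. Fold changes are on the log2(FPKM + 1) scale and understate changes of low genes. Fragments of a piece were implied from its deposited bounds, taken as 2 SD of counting error on each side. That reading of the bounds is an assumption. Of all pieces, 18.8% gave a value within 0.01 of a whole number. The fit was tested on simulated data. Python 3.11.15 read the tables, and names and sequences come from TAIR10.1.

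The members, gene lists and tests were chosen with earlier results of these data known. Members named with values were those called, the most abundant always-listed ones, those listed in all libraries of 1 genotype and none of another, and those with the smallest F-test p. Others were chosen after their values were seen. Alternatives changed the pseudocount, filter, scaling, length rule, class codes, samples fitted, replicate block and each library. Replicate numbers gave no sign of pairing the libraries.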

Additional observations from a re-analysis of the deposited data

Results flagged for a closer look

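Pieces that lie near a microRNA gene without overlapping it were left out of the gene values. For 6 of the 8 members with no usable piece the highest of the 9 mutant libraries stood above the highest of the 3 WT libraries in such pieces. For the other two it stood below, at 39.5 against 55.06 FPKM near MIR164B and 9.484 against 15.58 FPKM near MIR171C. A highest value over more libraries tends to be higher, so nothing about the genotypes is read from this. The highest mutant values were 27.5 FPKM near MIR160B (4.55 FPKM at most in WT), 14.28 FPKM near MIR162B, 6.38 FPKM near MIR166E, 40.77 FPKM near MIR171A, 6.961 FPKM near MIR394B and 91.41 FPKM near MIR823A. The last 5 had no nearby piece in WT and had one in 1 or 2 mutant libraries each, while MIR160B had one in 2 of 3 WT libraries and in 7 of the mutant ones. The positions of these pieces are not in the tables, so they were not tested.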

How the results depend on the processing

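MIR171B was the call in 1 of 23 members against WT in each mutant. The number of members called fell to 0 with the plain sum of FPKM and on the implied fragments, an alternative chosen after seeing the data. This held in the 3 comparisons with WT and in the F test. The number was also 0 there with class codes =, c and j only. In that setting 2 of the 3 WT pieces drop out, so MIR171B failed the filter and was not tested. In smax1-2 the number called was also 0 with a pseudocount of 0.25. Leaving out 1 library gave 0 to 1 in smxl5-1, 1 to 1 in the double mutant and 0 to 0 in smax1-2. With the fit of only the groups compared, 1 was called in the double mutant against smxl5-1, MIR775A. The F test had no such fit. Between mutants no other alternative gave a call. After the genotype mean of each gene was subtracted, same-numbered libraries of different genotypes correlated at -0.10 to 0.07 over 18 pairs. Differently numbered ones correlated at -0.07 to 0.17 over 36 pairs, so the numbers gave no sign of pairing the samples. With the replicate block 0 members were called in smxl5-1 and in smax1-2, 1 in the double mutant, and the calls over all genes in smxl5-1 went from 69 to 25. Over all alternatives other than leaving out a library, calls over all genes against WT ran from 9 to 126 in smxl5-1, 58 to 350 in the double mutant and 3 to 14 in smax1-2. Most pieces of the partly listed members rested on few implied fragments, and those of MIR850A and MIR863A on the most.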
